A study of Mus musculus with 8 samples.

Results

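The cytosolic ribosomal proteins are the protein components of the 40S (small) and 60S (large) ribosomal subunits outside mitochondria. Their probes were taken by gene name from the array annotation: Rps or Rpl followed by a number and at most 1 of the letters a, x, l or y, together with Rplp0, Rplp1, Rplp2 and Rpsa. Pseudogene names and the Rps6k kinases were left out. The rule gave 182 of 56605 probes, which lie on 758 spots and read 82 of the 36591 gene names on the array. Of these, 176 probes and 80 genes passed a filter that asks for a signal well above background on 4 or more arrays. The muscle paralog Rpl3l and the testis paralog Rpl10l were not well above background on any array, and their probes were left out with 1 probe each of Rps2, Rpl11, Rps4x and Rps27a.

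CD11b+ cells, the brain fraction that carries an integrin of microglia and other myeloid cells, were isolated by magnetic sorting from male C57BL/6N pups aged 7 days, 24 h after they had been given saline or lipopolysaccharide (LPS, an outer membrane component of Gram-negative bacteria). Each tube pooled the brains of 2 mice given the same agent. Total RNA from 4 saline and 4 LPS tubes was labelled with 1 dye and hybridised to 8 arrays on 1 slide, and the sources used here do not state the LPS dose.

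Ribosomal proteins are made in near equal amounts and assembled with ribosomal RNA in the nucleolus by a large set of assembly factors. Most of their mRNAs start with a stretch of pyrimidines, the 5′ terminal oligopyrimidine (TOP) tract, through which mTOR signalling and the RNA-binding protein Larp1 control their translation. Several members also act outside the ribosome, and a few have paralogs made under stress or in certain tissues. Rps27l, a paralog of Rps27, is known as a p53 target, and Rpl5 and Rpl11 bind Mdm2 and so stabilise p53.

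The tract is shown because it is the sequence feature for which the family is best known. RefSeq's promoter table (GRCm38.p6) held 61 of the 82 genes, with 73 start sites. The windows below run from 15 bases before the annotated start to 15 bases from it, 5′ to 3′ on the strand of the gene, and capitals mark a run of at least 5 pyrimidines (C or T) that covers the first transcribed base. They lie at chr3:90213634-90213663 (minus strand) for Rps27, chr4:86857353-86857382 (minus) for Rps6, chr9:120571502-120571531 (plus) for Rpl14, chr9:66946071-66946100 (plus) for Rps27l, chr17:24720048-24720077 (plus) for Rps2 and chr5:115559452-115559481 (plus) for Rplp0.
Rps27: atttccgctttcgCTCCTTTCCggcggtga
Rps6: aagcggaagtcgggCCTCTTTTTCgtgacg
Rpl14: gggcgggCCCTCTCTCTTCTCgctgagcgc
Rps27l: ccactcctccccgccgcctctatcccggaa
Rps2: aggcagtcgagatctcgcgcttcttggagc
Rplp0: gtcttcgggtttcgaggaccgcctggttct

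Such a run lay over 21 of the 73 start sites of members (28.8%), against 10.1% of all 32851 start sites in the table. It was searched on the strand of the gene only, and a start annotated a few bases away from the true one hides a tract. In the whole 300 base windows, the letters CCGGAAG, a core bound by Ets factors, stood on either strand in 26 member windows (35.6%) and in 8.86% of all windows. The E-box CACGTG, which reads the same on both strands and is bound by Myc, stood in 8 member windows (11.0%), against 7.15% of all. Members with a run at a start and those without had similar changes after LPS, with medians of 0.34 (21 genes) and 0.34 (38 genes), described here without a test.

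Values below are log2 processed signal minus the array's 75th percentile. Changes are LPS minus saline ± standard error with 4 arrays per group, from limma over all 22509 genes, with Benjamini-Hochberg adjusted p-values and a threshold of 0.05. Where a gene has several probes, the one brightest on average stands for it. Every one of the 80 measured ribosomal protein genes had a change above 0, with a median of 0.33 against 0.02 for all genes, but cyclic loess normalization gave a median of -0.11 with 16 genes above 0. With the 75th percentile 48 members rose and none fell, also at an unadjusted p under 0.05, while with cyclic loess 7 rose and 36 fell. Over all genes 27.8% were called higher and 21.5% lower, and under cyclic loess 25.7% and 26.1%. Among members 60% were called higher. Changes were small and close together, from 0.005 in Rpl37 to 0.97 in Rps27l, with an SD of 0.15 over the 80 genes. The Rpl37 value rests on 1 dim probe, with means of -4.22 in both groups, against a lower quartile of 7.27 over the members. With cyclic loess that probe changed by 0.24. Saline and LPS arrays did not overlap in 32 members, all of them higher after LPS, or 40% of members against 25.8% of all genes.

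**Figure D1:**
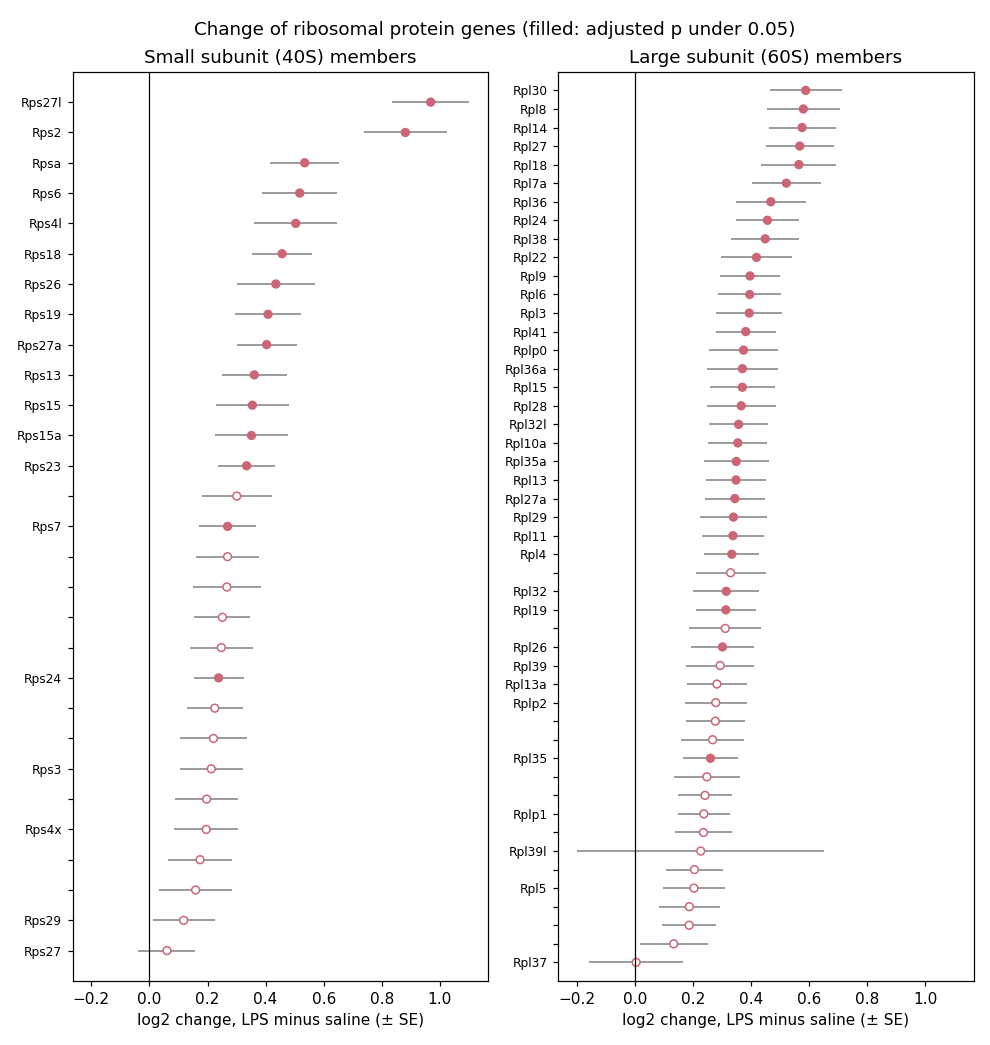
Log2 change after LPS with its standard error for 29 small subunit and 48 large subunit genes, with values scaled to each array's 75th percentile filled points past the adjusted p threshold and names beside the genes given in the text. The points lie between 0.005 and 0.97 with Rps27l and Rps2 apart from the rest, while with cyclic loess normalization 64 of the 80 genes measured lay below 0.

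Members run at high signal on these arrays, and genes of like signal also tended upward. The lower quartile of the members' mean values was 7.27, and 284 other genes lay at or above it. Of these genes 45.4% were called higher and 5.63% lower, with a median change of 0.26. The 60 members at or above the same level had a median of 0.33, and 61.7% of them were called higher.

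The medians of the 80 members on each array show how the arrays stood. They were 7.83, 7.82, 7.54 and 7.67 in saline replicates 1 to 4 and 8.20, 8.10, 7.77 and 8.05 in LPS replicates 1 to 4. LPS 3 lay below saline 1 and saline 2, so the groups overlapped. The median processed signal over all probes ran in nearly the opposite order, except between saline 1 and saline 2. It was 15.9, 15.5, 21.5 and 18.2 on the saline arrays and 11.7, 13.1, 17.3 and 13.8 on the LPS arrays, so that the 3 arrays with the lowest signal had the highest member medians and saline 3, with the highest signal, had the lowest. With that signal as a covariate in the fit 16 members were called higher and none lower (18.4% of all genes were higher), and the median change was 0.089. The part of the array signal in the members' change was not tested further.

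**Figure D2:**
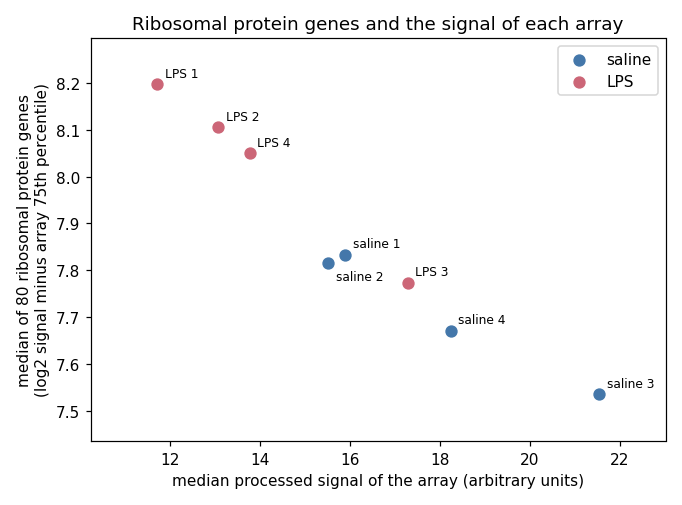
Median value of the 80 ribosomal protein genes (vertical axis, log2 relative to the array's 75th percentile) against the median processed signal of each array (horizontal axis, arbitrary units), 1 point per array. The member median falls from 8.20 at a signal of 11.7 (LPS 1) to 7.54 at 21.5 (saline 3), and LPS 3 lies among the saline arrays.

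The count of members called depended on the scaling. Scaling to each array's median gave 51 higher and a median of 0.55, while all genes moved to a median of 0.24 with 31.1% higher. Scaling over probes above background on every array gave 30 higher and a median of 0.18, with all genes at -0.13 and 21.6% of them higher. Quantile normalization gave 18 higher, 4 lower and a median of 0.055, against 25.2% of all genes higher and 24.9% lower, so that the share of members called higher was not above that of all genes. Normexp background correction gave 62 higher and a median of 0.31, with 29.8% of all genes higher. No member was called lower under the scalings other than quantile and cyclic loess. Leaving out LPS 1, LPS 2, LPS 4, saline 3 or saline 4 reduced the count from 48 to 21, 20, 23, 23 and 23. Over all genes 22.3%, 21.9%, 22.2%, 22.9% and 22.4% were then called higher, so the members' shares of 25% to 28.8% were near the background in these fits. Leaving out LPS 3 raised the count to 70, with 32.5% of all genes higher. The arrays stood in 2 rows of the slide, with 2 arrays of each group in a row. The member median was 0.41 within row 1 and 0.26 within row 2. In row 1 alone, with 2 arrays a group, 3 of the 80 members (3.75%) were called higher. This was a smaller share than among all genes, with 2923 of 22509 called higher. In row 2 alone no member was called, and 5 of the 22509 genes were called higher. With the row as a block 35 members were called higher, against 25.2% of all genes. Each of the 4 slide columns held 1 saline and 1 LPS array. LPS minus saline, the member median was 0.36, 0.29, 0.24 and 0.38 within columns 1 to 4, higher after LPS in 4 of 4, and with the column as a block 74 members were called higher, against 33.3% of all genes.

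**Figure D3:**
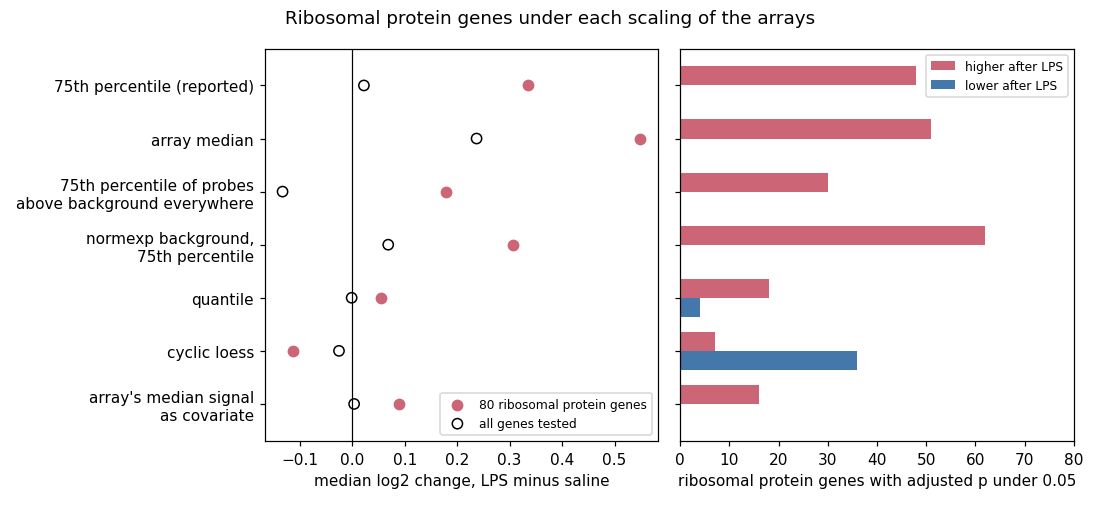
Left, median log2 change of the 80 ribosomal protein genes (filled) and of all 22509 genes (open) under each scaling; right, number of ribosomal protein genes called higher or lower. The member median lies above that of all genes under every scaling drawn except cyclic loess, where it is -0.11 and 36 members are called lower.

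There were 6 members whose call held across the scalings: Rps27l, Rps2, Rpl30, Rpl8, Rpl27 and Rpl18 were called higher with the 75th percentile, under all 5 other scalings and with the signal covariate. In slide row 2 alone, with 2 arrays a group, no member was called. Rpl30 was read by 1 probe that is dim for a member, with means of 1.65 after saline and 2.24 after LPS. The members' lower quartile was 7.27, and the part of this low level in the Rpl30 call was not tested. Rpl18, which is outside the genes named by rule, was chosen after its values were seen. The changes of the 6 members are given next, beginning with the small subunit.

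Rps27l had the largest change of any member. It stood at 5.26, 5.22, 4.92 and 5.12 on the saline arrays and at 6.29, 6.19, 5.75 and 6.15 on the LPS arrays. All LPS arrays lay above all saline arrays, with LPS 3 the lowest of its group. The change was 0.97 ± 0.13 (1.96-fold, adjusted p = 0.0012), and 0.61 to 1.18 over the scalings. Its second probe changed by 0.96 ± 0.13.

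Rps27, its close paralog and the constitutive subunit, did not pass the test. It stood at 8.26, 8.30, 7.97 and 8.15 on the saline arrays and at 8.36, 8.24, 8.09 and 8.23 on the LPS arrays, and the groups overlapped. The change was 0.06 ± 0.10 (adjusted p = 0.62), and it is named because of its paralog, after its values were seen. Both Rps27 probes have their place in the file headers' build (mm9) on chromosome 9, while RefSeq has the gene on chromosome 3, so a processed copy cannot be told apart from the gene. The sequences show which letters were read: the second Rps27l probe (chr9:66793986-66794695, 710 bases of genome for 60 letters) and the second Rps27 probe (chr9:114891672-114891731, minus strand), printed without capitals since the 2 probes read different stretches.
Rps27l probe: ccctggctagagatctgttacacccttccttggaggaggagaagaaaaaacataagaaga
Rps27 probe: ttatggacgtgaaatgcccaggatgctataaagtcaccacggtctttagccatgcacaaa

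The difference between the 2 paralogs does not depend on a scaling factor per array. Rps27l minus Rps27 was -3.00, -3.08, -3.05 and -3.03 on the saline arrays and -2.08, -2.05, -2.33 and -2.08 on the LPS arrays, where the offset between 2 probes has no meaning and only its shift does. The saline arrays lay close together and all LPS arrays lay above them, with a shift of 0.91 ± 0.07. An exact two-sided permutation test over the arrays gave p = 0.0286, the smallest that 4 against 4 arrays allow, and adjusted p = 0.0571 over the 4 paralog pairs compared. Genes in all 4 pairs were chosen after their values were seen. The permutation p-values here and below therefore serve as description only. The shift was 0.88 to 0.97 when any 1 array was left out, 0.82 with quantile normalization and 1.03 with cyclic loess.

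**Figure D4:**
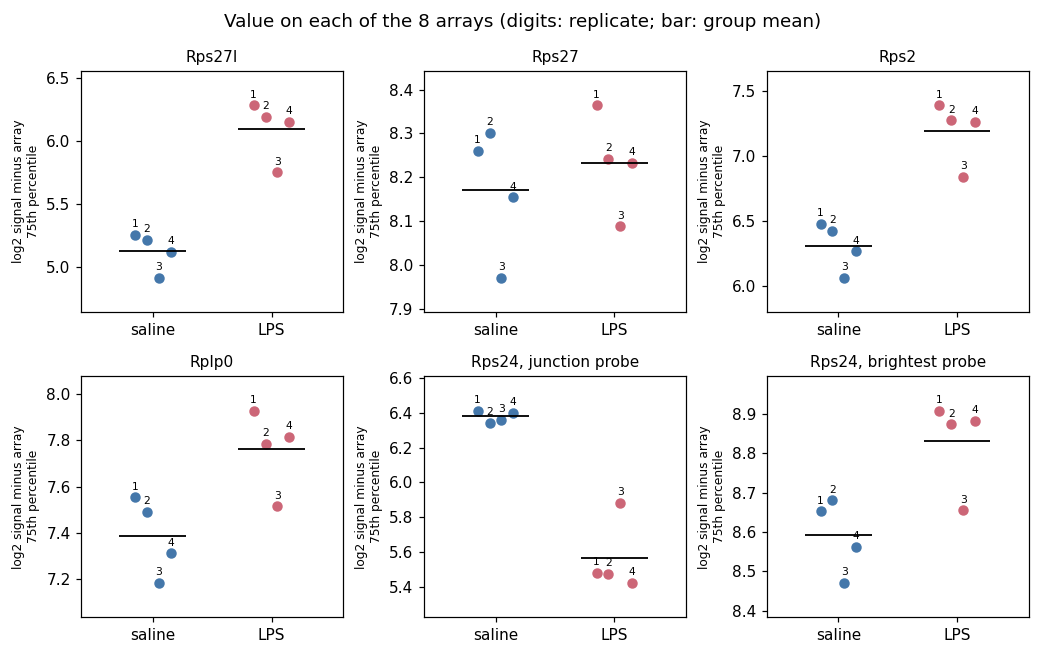
Value on each array (log2 relative to the array's 75th percentile) for Rps27l, Rps27, Rps2, Rplp0 and 2 probes of Rps24, with replicate numbers beside the points and bars at the group means. Rps27l and Rps2 separate the groups, Rps27 and Rplp0 overlap between them, and the Rps24 junction probe is lower on all LPS arrays.

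The other restricted paralogs gave 1 call. Rps4l, an Rps4x-like gene, stood at 3.45, 3.54, 3.28 and 3.27 on the saline arrays and at 4.16, 4.02, 3.51 and 3.86 on the LPS arrays. Only LPS 3 lay within the saline range. It rose by 0.50 ± 0.14 (adjusted p = 0.02), but the call was lost with quantile normalization (0.25), with the signal covariate (0.20) and without LPS 2 (0.46), saline 3 (0.47) or saline 4 (0.47). Rps4l minus Rps4x shifted by 0.31 ± 0.08 (exact permutation p = 0.0286, adjusted p = 0.0571).

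Rpl39l, a testis paralog of Rpl39, had the widest spread of the named members. It stood at 0.35, -0.06, -0.60 and -0.75 on the saline arrays and at 0.57, 0.55, -1.23 and -0.04 on the LPS arrays. LPS 3 held the lowest value of all 8 arrays. The change was 0.23 ± 0.43 (adjusted p = 0.67), and with the signal covariate it was -0.72. The shift of Rpl39l against Rpl39 was -0.07 ± 0.40 (exact permutation p = 0.829, adjusted p = 0.829). Rpl32l, read by a probe of its own, shifted against Rpl32 by 0.04 ± 0.03 (exact permutation p = 0.229, adjusted p = 0.305).

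Rps2, a protein of the mRNA entry side of the small subunit, had the second largest change. It stood at 6.48, 6.42, 6.06 and 6.27 on the saline arrays and at 7.39, 7.27, 6.84 and 7.26 on the LPS arrays, and the groups did not overlap. The change was 0.88 ± 0.14 (1.84-fold, adjusted p = 0.00204), and 0.49 to 1.10 over the scalings. This probe lies at chr17:42864841-42864900 in the file's build (mm9), away from the second probe at chr17:24857583-24857642 (plus strand). RefSeq's start window of the gene (chr17:24720048-24720077, GRCm38.p6) lies near the second probe's place. For the brighter probe a processed copy cannot be told apart from the gene. The second probe, whose letters follow, changed by 0.73 ± 0.12.
Rps2 probe: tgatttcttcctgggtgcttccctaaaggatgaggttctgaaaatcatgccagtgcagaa

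Rps6, the small subunit protein phosphorylated by S6 kinase downstream of mTOR, stood at 7.13, 7.10, 6.80 and 6.89 on the saline arrays and at 7.71, 7.56, 7.19 and 7.54 on the LPS arrays. The groups did not overlap, and it rose by 0.52 ± 0.13 (adjusted p = 0.0121), or by 0.10 and not past the test with cyclic loess. Rpsa, which is also known as the laminin receptor, stood at 8.02, 8.09, 7.68 and 7.90 on the saline arrays and at 8.63, 8.50, 8.23 and 8.47 on the LPS arrays. The groups did not overlap, and it rose by 0.53 ± 0.12 (adjusted p = 0.00745), or by 0.074 and not past the test with cyclic loess. Rps19, the gene most often mutated in Diamond-Blackfan anaemia, stood at 8.63, 8.62, 8.29 and 8.50 on the saline arrays and at 9.06, 8.97, 8.68 and 8.96 on the LPS arrays. It rose by 0.41 ± 0.11 (adjusted p = 0.0189) without overlap, but its change was -0.075 with cyclic loess, and the call was lost with the signal covariate (0.16) and without LPS 1 (0.36) or LPS 2 (0.39).

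Rps3, a small subunit protein with a further role in DNA repair and NF-kappaB signalling, did not pass the test. It stood at 7.06, 7.02, 6.92 and 6.80 on the saline arrays and at 7.33, 7.24, 6.90 and 7.19 on the LPS arrays, where LPS 3 lay within the saline range. The change was 0.21 ± 0.11 (adjusted p = 0.136), and -0.13 with quantile normalization and -0.20, called lower, with cyclic loess. In all 18 of 32 small subunit genes rose (56.25%, against 27.8% of all genes), with a median of 0.30. Besides those above, they included Rps7, Rps13, Rps15, Rps15a, Rps18, Rps23, Rps24, Rps26 and Rps27a, the last a fusion of ubiquitin to a ribosomal protein. Rps29, the second lowest of the small subunit after Rps27, changed by 0.12 ± 0.11, and 3 of its 4 probes have their place on another chromosome than the gene. Among all members this holds for 7 of the 176 member probes kept, a count that leaves out places elsewhere on the gene's own chromosome, as for Rps2.

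In the large subunit 30 of 48 genes rose (62.5%, against 27.8% of all genes), with a median of 0.34. The highest were Rpl30, Rpl8, Rpl14 and Rpl27. Rpl30, which also binds its own RNA in yeast, stood at 1.81, 1.74, 1.48 and 1.55 on the saline arrays and at 2.41, 2.31, 1.94 and 2.28 on the LPS arrays. The groups did not overlap, and the change was 0.59 ± 0.12 (adjusted p = 0.00595) on its only probe. Rpl8, a protein near the peptidyl transferase centre, stood at 7.33, 7.28, 6.94 and 7.09 on the saline arrays and at 7.91, 7.79, 7.48 and 7.79 on the LPS arrays. It rose by 0.58 ± 0.12 (adjusted p = 0.00635) without overlap, and by 0.15 with cyclic loess.

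Rpl14 stood at 8.03, 8.06, 7.72 and 7.95 on the saline arrays and at 8.70, 8.56, 8.28 and 8.54 on the LPS arrays. The groups did not overlap, and it rose by 0.58 ± 0.12 (adjusted p = 0.00475), or by 0.11 and not past the test with cyclic loess. Rpl27 stood at 7.34, 7.31, 7.02 and 7.20 on the saline arrays and at 7.96, 7.81, 7.52 and 7.85 on the LPS arrays. It rose by 0.57 ± 0.12 (adjusted p = 0.00532) without overlap, and by 0.14 with cyclic loess. Rpl18 rose by 0.57 ± 0.13 (adjusted p = 0.00828), and by 0.17 with cyclic loess.

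Rpl5 and Rpl11, which form a particle with 5S ribosomal RNA, are both large subunit proteins. Rpl5 stood at 6.75, 6.73, 6.41 and 6.56 on the saline arrays and at 6.94, 6.85, 6.63 and 6.85 on the LPS arrays, and LPS 3 lay within the saline range. Its change of 0.20 ± 0.11 did not pass the test (adjusted p = 0.14), was -0.020 with the signal covariate, and was -0.16 with quantile normalization and -0.19 with cyclic loess, both called lower. Rpl11 stood at 8.40, 8.42, 8.11 and 8.26 on the saline arrays and at 8.79, 8.69, 8.43 and 8.65 on the LPS arrays. It rose by 0.34 ± 0.11 (adjusted p = 0.0297) without overlap, by the narrow margin of LPS 3 over saline 2. Its call was lost under 3 other settings of scaling or covariate, without the filter on dim probes and without any 1 of LPS 1, LPS 2, LPS 4, saline 3 and saline 4, and with cyclic loess it was called lower, at -0.13.

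The stalk proteins Rplp0, Rplp1 and Rplp2 recruit translation factors to the ribosome, and Rplp0 is a usual reference gene for PCR. Rplp0 stood at 7.55, 7.49, 7.19 and 7.31 on the saline arrays and at 7.93, 7.78, 7.51 and 7.81 on the LPS arrays. LPS 3 lay below saline 1, so the groups overlapped. It rose by 0.37 ± 0.12 (1.30-fold, adjusted p = 0.0307), but its change was -0.058 with cyclic loess, and the call was lost with quantile normalization (0.063), the signal covariate (0.12), scaling over probes above background on every array (0.22) and without the filter on dim probes. It was also lost without any 1 of LPS 1, LPS 2, LPS 4, saline 3 and saline 4 (0.31 to 0.37). Rplp1 (0.24 ± 0.09) and Rplp2 (0.28 ± 0.11) did not pass the test, and with cyclic loess both were called lower, at -0.25 and -0.21.

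Rpl13a, another usual PCR reference gene and a part of an interferon-gamma dependent translational silencing complex, lay at the threshold. It stood at 7.30, 7.35, 7.09 and 7.14 on the saline arrays and at 7.64, 7.57, 7.28 and 7.52 on the LPS arrays. LPS 3 lay below saline 1 and saline 2, and the change of 0.28 ± 0.10 did not pass the test (adjusted p = 0.0501). It was -0.035 with quantile normalization and -0.14, called lower, with cyclic loess. The other large subunit genes called were Rpl3, Rpl4, Rpl6, Rpl7a, Rpl9, Rpl10a, Rpl13, Rpl15, Rpl19, Rpl22, Rpl24, Rpl26, Rpl27a, Rpl28, Rpl29, Rpl32, Rpl32l, Rpl35, Rpl35a, Rpl36, Rpl36a, Rpl38 and Rpl41.

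Probes of 1 gene mostly moved together, with Rps24 as the exception. Over the probes, 92 of 176 rose and 1 fell, against 25.7% of all 35494 probes called higher and 21.8% called lower. Of 58 genes with more than 1 probe kept, 5 had probes of both signs and 1, Rps24, had probes called both ways. Rps24 is known for alternative splicing of very small exons at the end of its coding sequence.

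The Rps24 probe that fell lies at chr14:25312695-25315015 (mm9, plus strand), where its 60 letters span 2321 bases of the genome, so it crosses at least 1 splice junction. The first 30 letters follow, with the first stop triplet in the frame of letter 1 in capitals, because they show where this probe reads.
Rps24 junction probe: aatgttggtgctggcaaaaagTGAgtggag
The probe stood at 6.41, 6.34, 6.36 and 6.40 on the saline arrays and at 5.48, 5.48, 5.88 and 5.42 on the LPS arrays. All LPS arrays lay below all saline arrays, with LPS 3 nearest to them. The change was -0.82 ± 0.11 (adjusted p = 0.00118 in the fit over all probes). The probe was below 0 in all 24 alternative settings and called lower in 23 of them, with the exception of slide row 2 alone, where 2 arrays against 2 gave -0.69.

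The other Rps24 probes moved the opposite way or did not pass the test. The probe that begins just after the junction probe's last base, at chr14:25315021-25315080, stood at 8.65, 8.68, 8.47 and 8.56 on the saline arrays and at 8.91, 8.87, 8.66 and 8.88 on the LPS arrays. Its change was 0.24 ± 0.09 (adjusted p = 0.0529 in the fit over all probes and 0.0496 in the fit over genes, where it stands for Rps24). The probe upstream of the junction, at chr14:25311190-25312666, rose by 0.28 ± 0.09 (adjusted p = 0.0389). The junction probe minus the probe after it moved from -2.24, -2.34, -2.11 and -2.16 on the saline arrays to -3.43, -3.40, -2.77 and -3.46 on the LPS arrays, a shift of -1.05 that needs no scaling between arrays. It was noticed in these data and is given as a description.

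Rack1 and Fau encode a ribosome scaffold and a ribosomal protein under names that the rule does not cover. Rack1, a scaffold on the small subunit, stood at 8.48, 8.46, 8.10 and 8.30 on the saline arrays and at 8.84, 8.74, 8.44 and 8.71 on the LPS arrays. It rose by 0.35 ± 0.12 (adjusted p = 0.0405), with LPS 3 below saline 1 and saline 2.

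Fau, the gene of the small subunit protein eS30, stood at 9.31, 9.36, 9.0 and 9.21 on the saline arrays and at 9.52, 9.44, 9.21 and 9.40 on the LPS arrays, with the groups overlapping. Its change of 0.17 ± 0.11 did not pass the test (adjusted p = 0.197). With cyclic loess both were called lower, Rack1 at -0.13 and Fau at -0.34, and the call of Rack1 was also lost with quantile normalization, with the slide row as a block, with the signal covariate and without any 1 of LPS 1, LPS 2, LPS 4, saline 3 and saline 4. Of 4 related genes that the rule does not name, the paralogs Rpl36al (0.75 ± 0.13), Rpl7l1 (0.64 ± 0.12) and Rpl22l1 (0.62 ± 0.11) rose, also with cyclic loess. The fourth, Rps3a1, is the gene of a small subunit protein rather than a variant, with a saline mean of 7.62. It did not pass the test (0.27 ± 0.11, adjusted p = 0.0663), and with cyclic loess it was called lower, at -0.17.

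Over all genes 27.8% were called higher and 21.5% lower, and with cyclic loess 25.7% and 26.1%. Of 50 ribosome biogenesis genes 41 rose (82%) and none fell, with a median of 0.58. With cyclic loess 39 rose (78%) and 1 fell, with a median of 0.44. Noc4l and Rrp12, assembly factors of the small subunit, rose by 1.14 ± 0.13 and 0.94 ± 0.10. Ddx21, a nucleolar RNA helicase, rose by 0.92 ± 0.12. Of 13 genes of RNA polymerase I and its factors 8 rose (61.5%, median 0.41), and 7 rose with cyclic loess (53.8%, median 0.21). With the 75th percentile Polr1b rose by 0.68 ± 0.09, Polr1e by 0.67 ± 0.12 and Polr1d by 0.55 ± 0.13. The difference between these lists and the members was not tested.

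Of 30 initiation factors 25 rose (83.3%, against 27.8% of all genes), with a median of 0.58. With cyclic loess 22 rose and 3 fell (73.3% and 10%, against 25.7% and 26.1% of all genes), with a median of 0.30. Eif5a rose by 1.01 ± 0.15, Eif2s1, the alpha subunit of eIF2, by 1.0 ± 0.12, and Eif1ax by 0.95 ± 0.13. Of 17 other genes with TOP mRNAs, among them elongation factors and the poly(A)-binding protein Pabpc1, 11 rose (64.7%, median 0.37). With cyclic loess 6 rose and 4 fell (35.3% and 23.5%, median 0.06), nearer to the shares of all genes. Without any 1 of LPS 1, LPS 2, LPS 4, saline 3 and saline 4, 6 or 7 rose, with 21.9% to 22.9% of all genes higher. The elongation factor subunits Eef1g (0.97 ± 0.13) and Eef1d (0.79 ± 0.14) and the histone chaperone Nap1l1 (0.78 ± 0.15) rose most.

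Regulators of the family moved both ways, as all genes did. Of 11 genes of the Myc and Max network 3 rose and 5 fell (27.3% and 45.5%), against 27.8% and 21.5% of all genes. Scaled to each array's median 1 fell, with 11.6% of all genes lower. Mxd3 (0.70 ± 0.13), Mlx (0.59 ± 0.10) and Mxd1 (0.50 ± 0.07) rose, and Mycl (-1.65 ± 0.30), Mnt (-0.44 ± 0.06) and Mxi1 (-0.39 ± 0.08) fell, while Myc itself stood at 0.13 ± 0.10 and did not pass the test. Of 17 genes of mTOR signalling and the Larp family 3 rose and 4 fell (17.6% and 23.5%), below and near the same shares of all genes. None fell scaled to each array's median. Leaving out any 1 of saline 2, saline 3, saline 4, LPS 1 and LPS 4 left 2 that fell, with 16.4% to 19.2% of all genes lower. Without LPS 3, 7 rose, with 32.5% of all genes higher. Eif4ebp1, a translation inhibitor that mTOR inactivates, rose by 0.99 ± 0.12, Larp1 by 0.82 ± 0.08 and Mtor by 0.30 ± 0.07. Rptor (-0.30 ± 0.08), Rheb (-0.28 ± 0.09) and Tsc1 (-0.28 ± 0.07) fell.

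**Figure D5:**
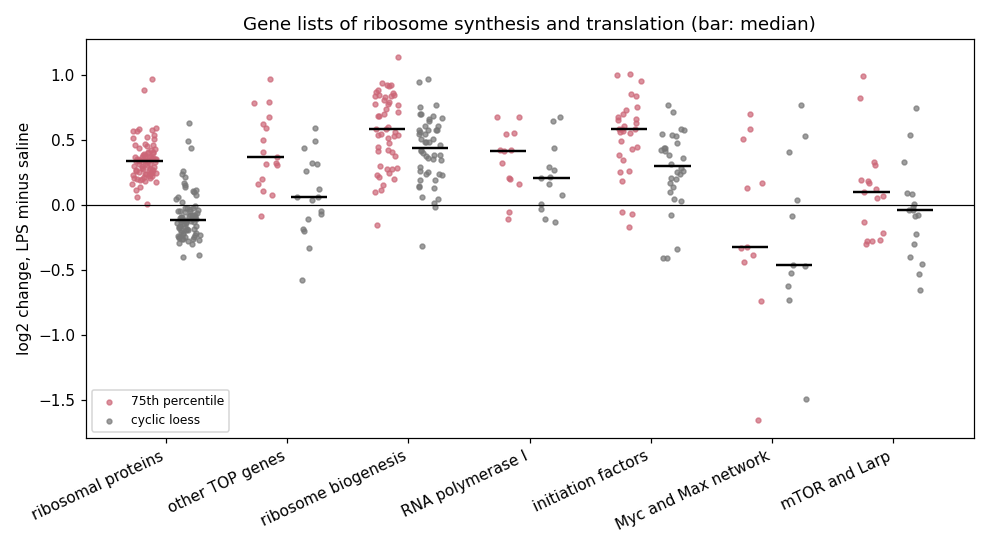
Log2 change after LPS of each gene in the lists of ribosome synthesis and translation, with the 75th percentile (red) and with cyclic loess normalization (grey), and bars at the medians. The ribosomal protein median moves from 0.33 to -0.11 between the 2 normalizations, and that of ribosome biogenesis from 0.58 to 0.44.

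The sorted fraction held microglial markers on every array, and some markers of microglia and of other myeloid cells moved with the treatment. Over all genes 27.8% were called higher and 21.5% lower, which is the background for each count of markers below. Of 10 microglial markers 2 rose, Aif1 (0.92) and Itgam (0.66). There were 4 that fell, P2ry12 (-1.55), Fcrls (-0.58), Sall1 (-0.41) and Siglech (-0.22). Their summed level (in units of the array's 75th percentile) lay between 1664 and 1988 after saline and between 1741 and 2027 after LPS. Csf1r (means of 9.05 and 9.15) and Cx3cr1 (8.99 and 9.02), neither of them called, were the brightest and weighed most in this sum. All 6 genes listed for monocytes (Ly6c2, Plac8, F10, Chil3, Ccr2 and Cd177) rose, with summed levels of 12.4 to 16.5 and 44.6 to 80.9. Ly6c2 and Plac8 carried most of these sums. Cd177, which is not particular to monocytes, was the dimmest, with means of -4.62 after saline and -3.81 after LPS. Of 10 neutrophil markers 3 rose (S100a8, S100a9 and Cxcr2), a share near that of all genes, with sums of 71.5 to 168 and 169 to 299. These sums were carried by S100a8 and S100a9, with LPS means of 5.93 and 7.44. Camp (-0.89), Mpo (-0.54), Ltf (-0.14), Elane (-0.12) and Retnlg (-0.07) lay below 0, Ly6g (0.55) and Mmp8 (0.96) above it, all without a call. Border macrophage markers fell in 3 of 6, with sums of 470 to 599 and 309 to 428. T and NK cell markers rose in 2 of 5 measured and fell in 1, and B cell markers rose in 3 of 5. Markers of erythroid cells fell in 3 of 4 measured, of astrocytes in 5 of 6, of oligodendrocytes in 3 of 6, of neurons in 1 of 6 with 1 higher, and of endothelium in 4 of 5. Their part in the ribosomal protein values was not tested, and in such a mixture a different share of a cell type and a different RNA level per cell cannot be told apart.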

How the data were processed

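Scanner files of 8 arrays, 4 saline and 4 LPS, hold intensity values that came from Agilent Feature Extraction 12.0.3.1, per the submitters' processing notes, with a background-subtracted but unscaled processed signal, per the file headers. A value table deposited by the authors has log2 values that tracked the scanner values on every array (correlations of 0.999 to 1.000), with array medians of -0.07 to 0.08 and genes centred. It served as an alternative.

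Control spots and outlier spots were left out, spots of 1 probe averaged, and and probes kept if well above background on 4 or more arrays (35494 probes, 22509 genes, each by its brightest probe on average). No spot was saturated. Between 58.6% and 66.0% of an array's probes passed this limit. Log2 processed signal minus the array's 75th percentile was fitted with limma 3.58.1 (R 4.3.3; lmFit, eBayes), and p-values were adjusted by Benjamini-Hochberg over all genes. The fit was tested on simulated data. Alternatives covered scaling, background, filter, probe choice, variance model, slide position and each array left out. Slide columns held 1 array of each group.

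The members and lists were chosen with earlier results of these data known. Values on all arrays are given for up to 6 members with the largest increase and 6 with the largest decrease among those called without overlap (none decreased), the measured restricted paralogs, and 10 genes named in the rule. A few further genes are not reported here. Of other lists, up to 3 called genes per direction are named. The tubes were separate pools of 2 mice. Near-identical paralogs and processed copies of ribosomal protein genes can share signal on these probes. Promoter windows are RefSeq's (GRCm38.p6), and probe coordinates are those of the files (mm9).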

Additional observations from a re-analysis of the deposited data

Results flagged for a closer look

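On the Rps24 junction probe, LPS replicate 3 stood at 5.88, with the nearest of the other LPS arrays at 5.48, a gap of 0.876 of the group's range, which is above Dixon's critical value of 0.829 for 4 arrays. It is the only one of 40 groups of 4 values examined that passed this limit, and chance passes about 1 in 20 groups. The same array had the lowest value of the LPS group in Rps27l, Rps2, Rplp0 and the median of all members, and the highest median signal of the LPS arrays (17.3).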

How the results depend on the processing

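The main fit called 48 members, all higher, and 93 member probes, with 27.8% of all genes and 25.7% of all probes higher. Each pair of counts below is followed by these 2 shares. Scaling over probes above background on every array gave 30 and 58 (21.6% and 19.5%). Quantile normalization gave 22 (18 higher, 4 lower) and 44 (33 higher, 11 lower), with shares of 25.2% and 24.9%. Without a filter on dim probes the counts were 31 and 61 (15.1% and 14.1%). They were 74 and 147 with array weights (36.3% and 32.7%), and 74 and 144 with the slide column as a block (33.3% and 30.2%). The signal covariate, an alternative chosen after the data were seen, gave 16 and 34 (18.4% and 15.9%). Cyclic loess called 7 members higher and 36 lower, against 25.7% and 26.1% of all genes. Leaving out 1 array gave 20 to 70 genes and 40 to 139 probes. Slide row 1 alone, with 2 arrays a group, gave 3 genes and 8 probes. There 2923 of all 22509 genes and 3854 of all 35494 probes were called higher. Slide row 2 alone gave no member gene or probe. The median change of 0.33 became 0.55 with each array's median, 0.055 with quantile, -0.11 with cyclic loess and 0.089 with the covariate, and 0.27 to 0.41 without 1 array. With cyclic loess 8 of 18 named genes turned: Rplp0 -0.058, Rpl13a -0.14, Rps3 -0.20, Rpl5 -0.19, Rpl11 -0.13, Rps19 -0.075, Rack1 -0.13 and Fau -0.34. With quantile normalization Rpl13a (-0.035), Rps3 (-0.13) and Rpl5 (-0.16) turned, and with the covariate Rpl39l (-0.72), Rpl5 (-0.020) and Fau (-0.049). The cause was not tested. The other alternatives, which were the normexp background, the filter on all 8 arrays, the mean of a gene's probes, the trended robust variance, the slide row as a block and the authors' values, kept these counts within 1.5 times and the median within the spread between arrays. Quantile normalization gives every array the same distribution, and cyclic loess removes differences between arrays that follow intensity. Depth has no counterpart here, and the 4 arrays a group limit the precision. The labels give no replicate numbers and name no pairing, so the fit has no block, and slide columns entered only as an alternative.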
